A study of Mus musculus with 17 samples.

Results

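Messenger RNA amplified from 0.1 pg was compared with messenger RNA amplified from 10 pg, each on 3 Affymetrix mouse arrays and each after 4 rounds of amplification. These 6 arrays were taken by their titles from the 17 of a dilution and amplification control series. All 17 carry mRNA from the cortex of adult female C57BL/6 mice with no treatment, and the remaining 11 arrays hold unamplified bulk mRNA (5 µg, 1 array), 1 pg after 4 rounds (3 arrays) and 10, 1 or 0.1 pg after 2 rounds (1, 3 and 3 arrays). Both groups compared here share the strain, sex, tissue and number of rounds, and by their titles they differ in the mass of mRNA before amplification. The titles and methods name no day or batch of amplification, and a batch that followed the mass could not be told apart from it. According to the methods the arrays are separate amplifications of dilutions of 1 cortical mRNA, and a p-value here speaks of how amplifications vary and says nothing of animals.

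Antisense RNA (aRNA) amplification copies polyadenylated mRNA into cDNA from an oligo(dT) primer that carries a T7 promoter, and T7 RNA polymerase then transcribes that cDNA into many antisense copies. In later rounds the copies are primed again, and they tend to become shorter and to hold mainly the 3′ end of each transcript. The method is used for the RNA of single neurons and of single dendrites. Cortical neurons express large amounts of cytoskeletal, synaptic vesicle, channel and calcium signalling mRNAs, which makes these transcripts a natural test of what a small input retains. The comparison asks which of them kept the rank they had in unamplified cortex mRNA when the input was 0.1 pg instead of 10 pg.

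A level below is a log2 value relative to the median of its array, after the arrays were brought to a common range, and of several probe sets for a gene the brightest on average over all arrays was used. In bulk, the pan-neuronal markers had a median level of 3.10 and the astrocyte markers 3.06, whereas the blood and the choroid plexus markers lay at -0.42 and -0.31. Replicate 3 of 10 pg stood nearer to the other input than its group did. Its correlation with the 0.1 pg arrays over all probe sets averaged 0.794, against 0.687 and 0.701 for replicates 1 and 2, while its correlation with these 2 replicates averaged 0.882. The probe sets for the ends of beta-actin, a check of how complete the copies are, differed by 1.13 ± 0.551 (SD, n = 3) between the 3′ and the 5′ end at 10 pg and by -0.81 ± 0.156 (SD, n = 3) at 0.1 pg. The same difference was 4.73 ± 0.205 and 3.71 ± 0.0278 for Gapdh, and 4.73 ± 0.185 and 6.62 ± 0.770 for the transferrin receptor (SD, n = 3), and the part of RNA length in the results was not tested.

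Most genes that were lower at 0.1 pg were abundant in bulk, whereas the genes that were higher were spread over bulk levels like genes in general. In limma over all 45037 probe sets, 3991 (8.86%) passed an adjusted p of 0.05, and among the 18193 genes 908 (4.99%) were lower and 908 (4.99%) higher at 0.1 pg, against a median change of 0.13 over all genes. A gene is said to have fallen or risen below where it passed this test. The lower genes had a median level of 3.48, 3.41 and 2.77 on the 10 pg arrays and of 0.06, -0.09 and 0.15 on the 0.1 pg arrays. The higher genes had 0.28, 0.45 and 1.13 at 10 pg and 3.33, 3.28 and 2.87 at 0.1 pg, so in both sets replicate 3 of 10 pg lay on the side of the 0.1 pg arrays. The counts rest on all 6 arrays: without replicates 1, 2 and 3 of 10 pg the lower genes numbered 497, 596 and 828, and without those of 0.1 pg 545, 504 and 711. The higher genes numbered 225, 325 and 928, and 300, 267 and 640.

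The bulk array is not part of this contrast, although all 17 arrays set the estimate of the spread and the probe set used. Of the genes that fell, 535 (58.9%) belonged to the top 25% of genes in bulk. Of those that rose 228 (25.1%) did, the share that any genes have by the definition of this group. The bulk level lay below all 3 arrays of 10 pg for 489 of the 908 fallen genes, which thus stood higher at 10 pg than in bulk, and it lay above all 3 arrays of 0.1 pg for 791. For 875 of the 908 risen genes it lay below all 3 arrays of 0.1 pg. The bulk level was nearer to the mean of 10 pg for 70.8% of the fallen and 87.4% of the risen genes, and for 66.6% of all genes. Since the levels at both inputs chose the genes, these counts are a description. At 1 pg after 4 rounds the fallen genes had a median of 1.51 ± 0.213 (SD, n = 3), between both inputs, and the risen genes 1.12 ± 0.628 (SD, n = 3), with replicate 2 highest at 1.79. After 2 rounds the 3 arrays of 1 pg already showed the pattern of 0.1 pg, at 0.65 ± 0.130 for the fallen and 2.96 ± 0.191 for the risen genes (SD, n = 3).

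**Figure D1:**
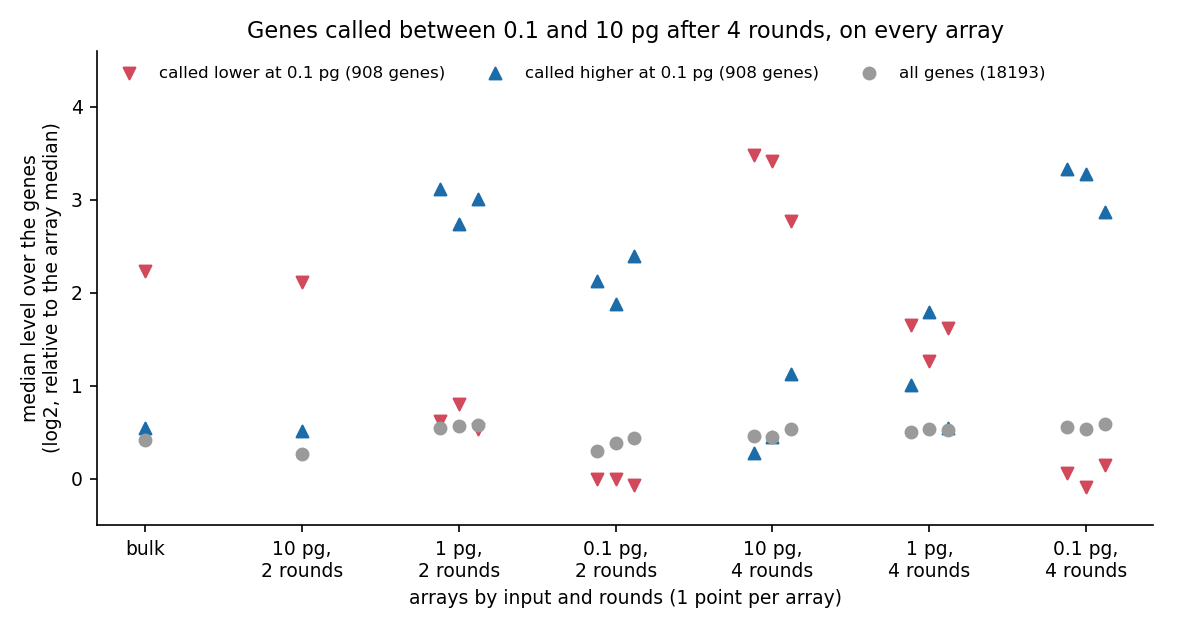
Median level, in log2 relative to the array median, of the genes that were lower (908) or higher (908) at 0.1 than at 10 pg after 4 rounds, and of all genes, with 1 point for each of the 17 arrays. The 10 pg and 0.1 pg arrays after 4 rounds defined the genes; on the remaining arrays the lower genes stood at 2.23 in bulk and near 0 at 0.1 pg after 2 rounds.

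Agreement with bulk was lower at the smaller input. Over all probe sets, Pearson's correlation with the bulk array was 0.825, 0.821 and 0.809 at 10 pg and 0.667, 0.663 and 0.692 at 0.1 pg. The groups did not overlap, and the difference of -0.144 had p = 0.1 in an exact two-sided permutation test, the smallest p that 3 against 3 arrays allow. Of the 4545 genes in the top 25% of bulk, an array of 10 pg held 74.2% ± 0.7 (SD, n = 3) in its own top 25%, and an array of 0.1 pg 63.3% ± 1.5 (SD, n = 3), with the same exact p of 0.1. A gene of this group is called kept at an input where it stood in the top 25% on all 3 arrays, and lost where it did so on none. At 10 pg 2861 genes (62.9%) were kept and 686 (15.1%) lost, and at 0.1 pg 2596 (57.1%) were kept and 1349 (29.7%) lost. The 3 arrays of 0.1 pg disagreed with each other on 600 genes (13.2%), fewer than the 998 (22.0%) on which the 10 pg arrays did. Both inputs kept 2125 genes (46.8%), 427 (9.39%) were kept at 10 pg and lost at 0.1 pg, and 90 (1.98%) were lost at 10 pg and kept at 0.1 pg.

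At 0.1 pg a smaller share of the neuronal transcripts than of other abundant transcripts was kept, and this difference was not tested. Of the 322 measured genes of 15 neuronal lists, 181 were in the bulk top 25%. The arrays of 10 pg kept 84.5, 84.0 and 75.7% of these 181, and the arrays of 0.1 pg kept 55.2, 51.4 and 58.0%. The 4364 other genes were kept at 73.1, 74.6 and 74.2%, and at 63.2, 62.5 and 65.3%. Neuronal genes thus stood above the others on each array of 10 pg and below them on each array of 0.1 pg. Some lists of general cell function had as low a share at 0.1 pg, and others did not. Of the genes in the bulk top 25%, 10 pg kept 6 of 15 cytosolic ribosomal proteins, 5 of 7 glycolysis genes, 9 of 17 ubiquitin conjugation genes, 6 of 16 chaperones and 18 of 37 genes of the respiratory chain on all 3 arrays. At 0.1 pg the counts were 2, 2, 5, 5 and 14. Of the 181 neuronal genes 129 were kept at 10 pg and 84 at 0.1 pg. The opposite was seen for mitochondrial ribosomal proteins, with 4 of 11 kept at 10 pg and 8 at 0.1 pg. Proteasome genes had 5 of 9 kept at 10 pg and 6 at 0.1 pg. The glycolysis genes include Eno2, which is also among the 181 and was kept at 10 pg but not at 0.1 pg. Over the 36 neuronal and 872 other genes of the bulk top 5%, whose median bulk levels were 5.75 and 5.80, the share kept at 0.1 pg was 82.4% ± 5.78 and 97.6% ± 0.175 (SD, n = 3), after every one of the 36 and 99.5% ± 0.303 (SD, n = 3) at 10 pg. When a gene's probe sets were averaged by their median instead, the neuronal genes went from 71.1% ± 7.56 to 45.2% ± 3.75 and the others from 69.1% ± 1.12 to 56.5% ± 1.82 (SD, n = 3), and replicate 3 of 10 pg, at 63.4%, then lay below the other genes.

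**Figure D2:**
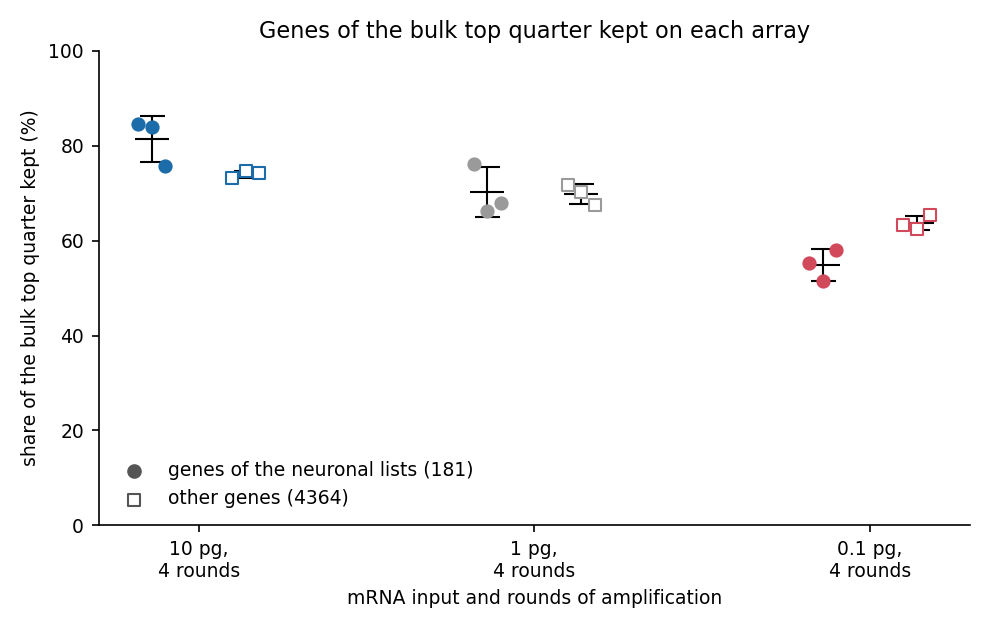
Share (%) of the genes in the bulk top 25% that each array held in its own top 25%, by input after 4 rounds, for 181 genes of the neuronal lists (filled circles) and 4364 other genes (open squares). Each symbol is 1 array and the bars are the mean ± SD of 3; neuronal genes lie above the others at 10 pg (75.7% to 84.5%) and below them at 0.1 pg (51.4% to 58.0%).

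In limma 62 of the 322 neuronal genes fell (19.3%) and 11 rose (3.42%), with a median change of -0.41. In the bulk top 25% 47 of 181 fell, where 535 of all 4545 genes (11.8%) did. The 62 numbered 42, 47 and 62 without replicates 1, 2 and 3 of 10 pg and 48, 44 and 52 without those of 0.1 pg. The 11 that rose were fewer in each fit but 1, at 3, 4 and 11 and at 3, 3 and 6, and were 3 with the median over the probe sets, where 57 fell. The excitatory, vesicle, postsynaptic density, cytoskeleton, calcium and immediate early lists held 1 risen gene each, and none of these lists had a risen gene without replicate 1 of 10 pg or without replicate 1 or 2 of 0.1 pg. The bulk level lay below all 3 arrays of 10 pg for 28 of the 62.

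**Figure D3:**
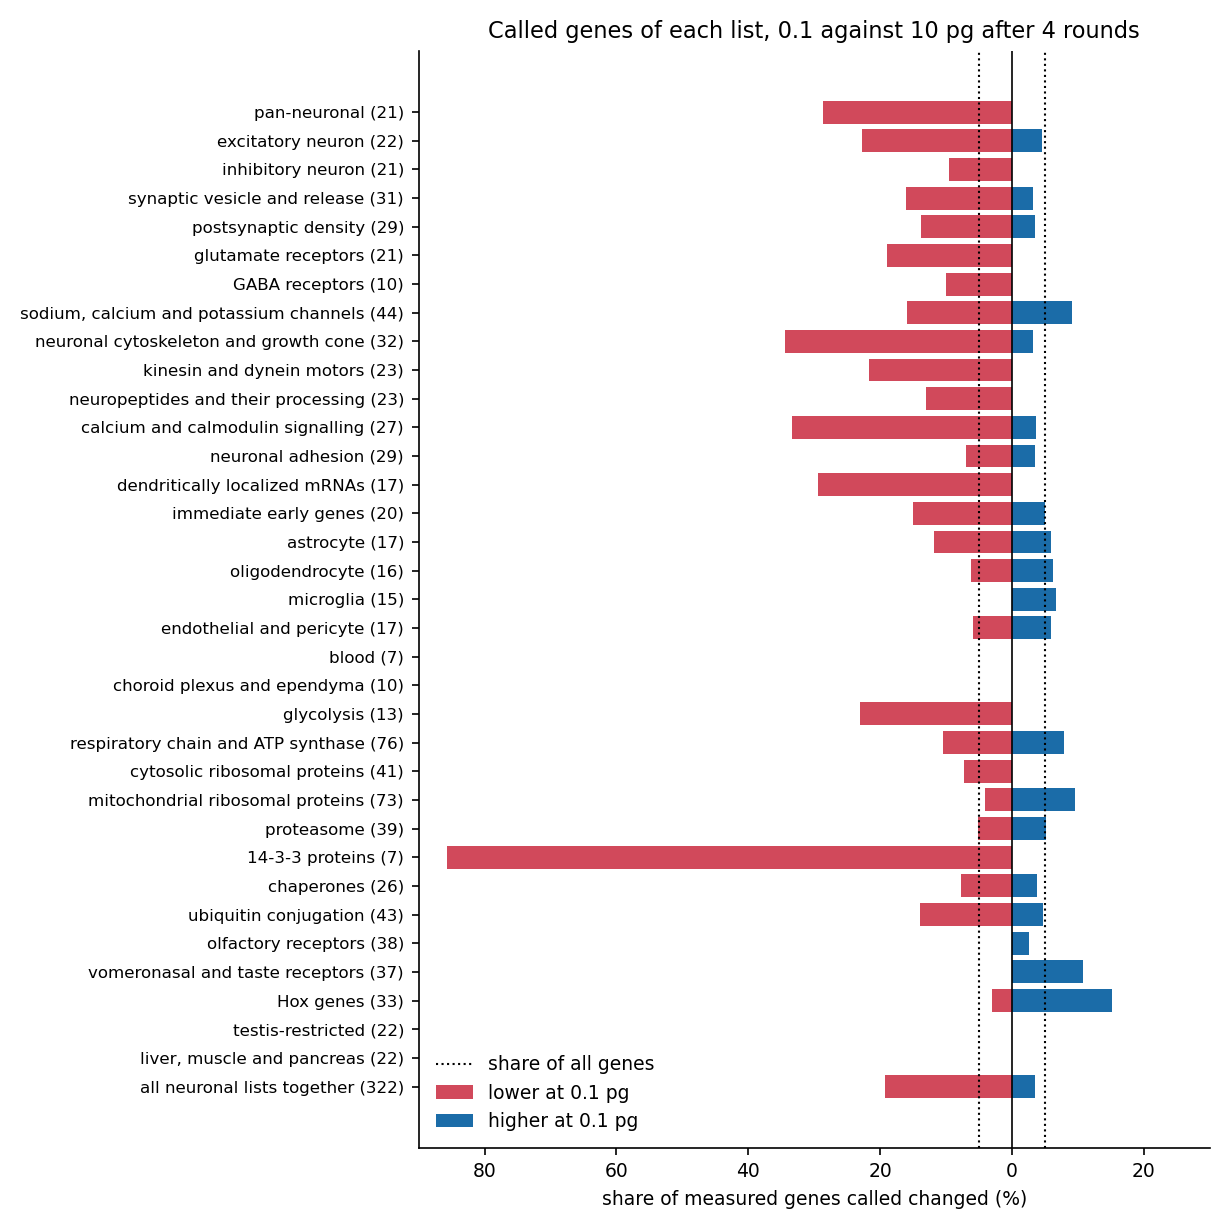
Share (%) of the measured genes of each list that were lower (left) or higher (right) at 0.1 than at 10 pg after 4 rounds in limma, with the number of measured genes in brackets. Dotted lines mark the 4.99% of all genes in each direction; the 14-3-3 proteins (6 of 7), the neuronal cytoskeleton (11 of 32) and calcium signalling (9 of 27) had the highest shares of fallen genes.

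Of 32 measured genes of the cytoskeleton and growth cone, 11 fell (34.4%) and 1 rose (3.12%), where 4.99% of all genes moved each way. The median change was -1.42, and of 27 in the bulk top 25% 24 were kept at 10 pg and 12 at 0.1 pg. Tuba4a, an alpha-tubulin, read 5.72, 5.14 and 2.67 at 10 pg and -1.08, -0.70 and -2.12 at 0.1 pg, with 4.84 in bulk. It fell by 5.81 ± 0.681 (SE, adjusted p = 0.000152). Map1b, a microtubule-associated protein of growing axons, read 5.21, 5.02 and 3.93 against 0.65, 0.40 and -1.03, and fell by 4.72. The neurofilament subunits Nefl and Nefm, the tubulin Tubb2a, the stathmins Stmn1, Stmn2 and Stmn4, and the growth cone genes Basp1, Dpysl2 and Dclk1 fell as well. Nefl, the light subunit, had 5.45, 6.22 and 5.25 at 10 pg and 2.39, -0.35 and -0.26 at 0.1 pg. By contrast Map2, the microtubule protein of dendrites, read 6.91, 6.54 and 6.68 against 6.38, 6.27 and 6.75, and these ranges overlapped. Its difference was -0.24 with a 95% interval from -1.03 to 0.54. Of the 4 probe sets for Map2 another 1 fell, and the median of the 4 fell by 2.32. Map4, a related protein of many cell types, had a difference of -0.09 (95% interval -0.90 to 0.72).

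The 21 measured pan-neuronal genes had a median change of -1.17, and 6 fell (28.6%) and none rose, where 4.99% of all genes moved each way. Without replicates 1, 2 and 3 of 10 pg the count was 4, 5 and 7, and without each array of 0.1 pg it was 5. Eno2, the neuronal enolase, read 6.67, 6.40 and 6.18 at 10 pg and -0.48, -0.15 and 3.74 at 0.1 pg, where replicate 3 held more than the other 2, and bulk read 6.06. It fell by 5.38 ± 0.888 (SE, adjusted p = 0.00165). Of the 14 genes in the bulk top 25% 12 were kept at 10 pg and 6 at 0.1 pg. The 6 kept at both were Snap25, Syp, Syt1, Stmn3, Map2 and Ndrg4, and the 3 kept at 10 pg and lost at 0.1 pg were Nefm and the RNA-binding proteins Elavl4 and Celf4. A kept gene could still fall: Snap25, a vesicle fusion protein of the presynapse, stood at 6.59, 6.86 and 6.44 and then at 2.82, 2.10 and 4.03, which left it in the top 25% on every array although it fell by 3.65.

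**Figure D4:**
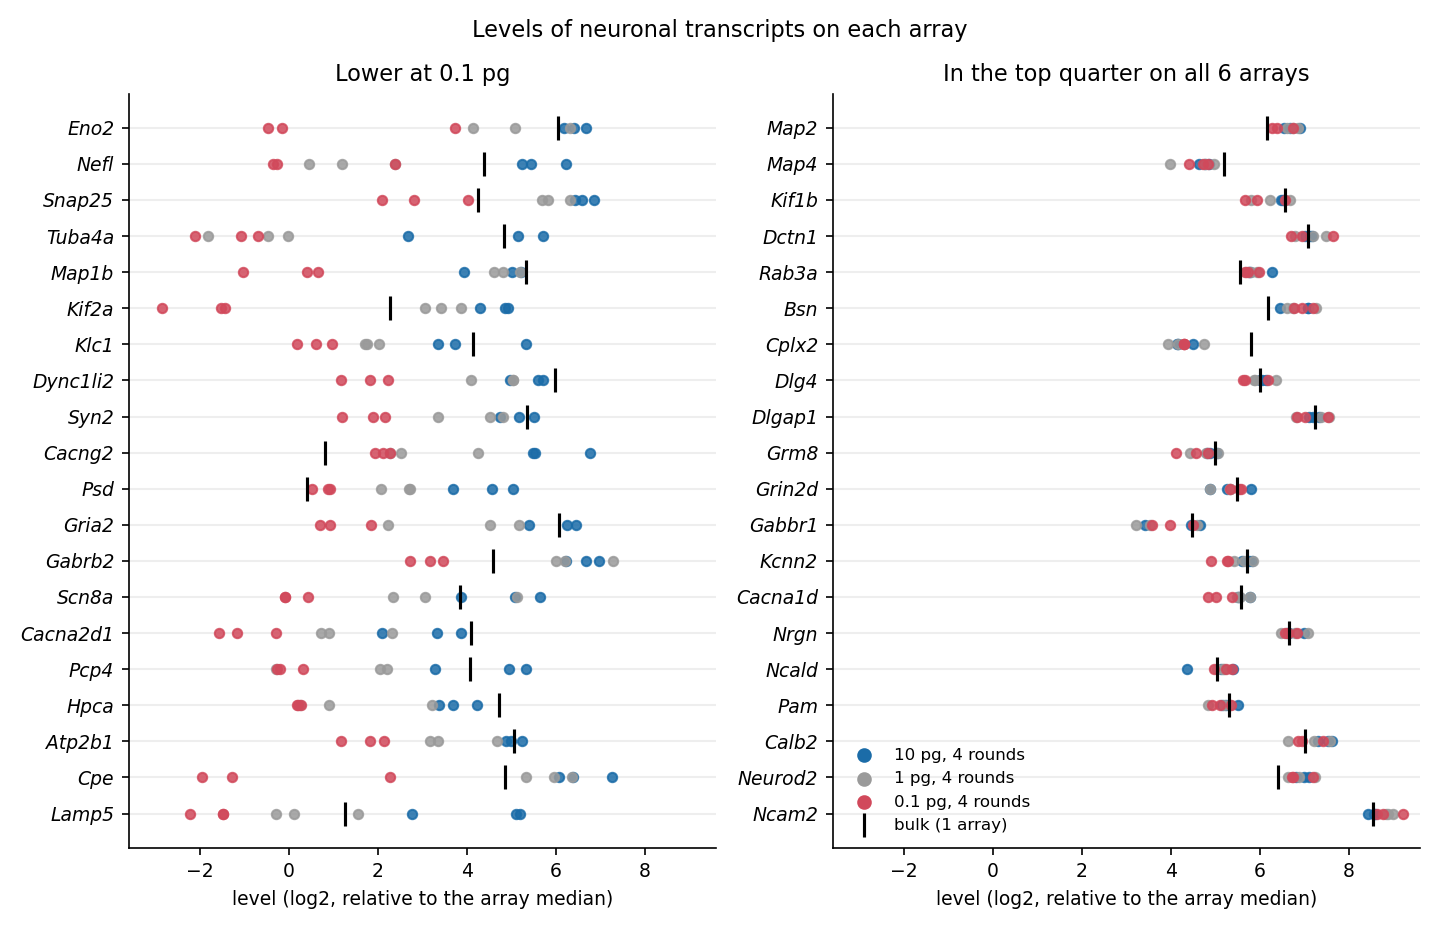
Levels (log2, relative to the array median) of 20 neuronal transcripts that fell and of 20 that stayed in the top 25% on all 6 arrays, with 1 point per array for 10, 1 and 0.1 pg after 4 rounds and a bar for bulk. The 0.1 pg arrays of the left panel lie to the left of all 10 pg arrays, and those of the right panel overlap them or lie within 1 unit of them.

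Motor proteins carry vesicles and RNA along microtubules. Of 23 measured kinesin, dynein and dynactin genes 5 fell (21.7%) and none rose, where 4.99% of all genes moved each way. The 5 passed without each of the 6 arrays in turn. Dync1li2, a light intermediate chain of dynein, read 5.71, 5.59 and 4.98 at 10 pg, 1.17, 1.82 and 2.23 at 0.1 pg, and 5.98 in bulk, and fell by 3.69 ± 0.461 (SE, adjusted p = 0.000237). Klc1, a light chain of kinesin, fell by 3.56, from 5.34, 3.74 and 3.36 to 0.18, 0.60 and 0.98. Of 14 genes in the bulk top 25% 12 were kept at 10 pg and 5 at 0.1 pg. Dctn1, the largest dynactin subunit, was among the 5 with 7.17, 7.03 and 7.14 against 6.95, 6.70 and 7.66. Kif1b, a kinesin of synaptic vesicle precursors and mitochondria, had 6.55, 6.53 and 6.49 against 5.95, 5.68 and 6.56, a difference of -0.46 (95% interval -1.29 to 0.37). Of its 7 probe sets 2 fell, and their median did too.

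Of the transcripts of the synaptic vesicle cycle in the bulk top 25%, 15 of 24 were kept at both inputs, where 46.8% of all such genes were. Among 31 measured, 5 fell (Snap25, Stx1a, Syn2, Sv2b, Rims1) and 1, the vesicle SNARE Vamp1, rose. These were 16.1 and 3.23% of the list, where 4.99% of all genes moved each way. Syn2, a synapsin that tethers vesicles, read 5.17, 5.50 and 4.75 at 10 pg and 1.20, 1.88 and 2.17 at 0.1 pg, and fell by 3.39. Stx1a, the plasma membrane partner of Snap25, fell by 4.24 ± 0.888 (SE, adjusted p = 0.00787), and its adjusted p was 0.0505 without replicate 2 of 0.1 pg. The active zone scaffold Bsn read 7.09, 6.46 and 7.08 at 10 pg and 6.78, 6.96 and 7.20 at 0.1 pg. Rab3a, the small GTPase of vesicle docking, read 6.27, 5.79 and 5.76 against 5.73, 5.68 and 5.99. Cplx2, a complexin, read 4.15, 4.50 and 4.16 against 4.30, 4.29 and 4.30, below its 5.80 in bulk at both inputs. The levels of these 3 genes overlapped between the inputs, with 95% intervals of the difference from -0.68 to 0.89, from -0.89 to 0.60 and from -0.74 to 0.79.

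On the postsynaptic side, 4 of 29 genes of the postsynaptic density fell (13.8%) and 1 rose (3.45%), where 4.99% of all genes moved each way. In the bulk top 25% 2 of 16 fell, near the 11.8% of all such genes. Both inputs kept 8 of these 16, near the 46.8% of all such genes. The 4 fallen genes of the list became 2, 2 and 3 without replicates 1, 2 and 3 of 10 pg and 3, 2 and 3 without those of 0.1 pg. Cacng2, an auxiliary subunit of AMPA receptors, read 5.48, 6.77 and 5.54 at 10 pg and 2.28, 1.93 and 2.12 at 0.1 pg, but 0.82 in bulk. Its fall of 3.82 was thus a move toward bulk, and the median of its 3 probe sets differed by 1.14, in the opposite direction. Psd, an exchange factor for the GTPase Arf6, also moved toward bulk, with 4.56, 5.03 and 3.68 against 0.92, 0.53 and 0.89 and 0.41 in bulk. The scaffold genes Dlg4 (PSD-95) and Dlgap1 were kept, at 6.15, 6.01 and 6.05 against 5.63, 5.68 and 6.18 for Dlg4. Dlgap1 read 7.34, 7.19 and 7.12 against 7.02, 6.85 and 7.53, and 1 of its 6 probe sets fell. Their differences of -0.24 and -0.08 had 95% intervals from -1.02 to 0.54 and from -0.92 to 0.76.

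Among receptor subunits both kept and lost transcripts were found. Of 21 glutamate receptor genes, 4 (19.0%) fell (Gria1, Gria2, Grik3, Grm3) and none rose, where 4.99% of all genes moved each way. The count of fallen ones was 2, 2 and 5 without replicates 1, 2 and 3 of 10 pg and 2 without each array of 0.1 pg. Gria2, the AMPA receptor subunit that limits calcium entry, read 5.39, 6.25 and 6.46 at 10 pg, 0.92, 0.71 and 1.84 at 0.1 pg and 6.07 in bulk, and fell by 4.88 ± 0.712 (SE, adjusted p = 0.000687). It ranked among the 10 most abundant genes of bulk that were kept at 10 pg and lost at 0.1 pg. The other 2 probe sets for Gria2 differed by -0.69 and -1.82 and did not pass. Grin2d, an NMDA receptor subunit, had 5.26, 4.89 and 5.81 against 5.54, 5.33 and 5.58, with a difference of 0.16 (95% interval -0.71 to 1.03). Of 10 GABA receptor genes 1 fell: Gabrb2, an ion channel subunit, with 6.98, 6.24 and 6.68 against 3.47, 2.72 and 3.18, and 3 of its 5 probe sets fell. Gabbr1, a metabotropic GABA receptor subunit, read 4.66, 4.45 and 3.42 against 4.50, 3.99 and 3.58.

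Voltage-gated and related channels moved both ways, 7 of 44 down and 4 up. The 4 that rose were 2, 2 and 4 without replicates 1, 2 and 3 of 10 pg and 2, 2 and 3 without those of 0.1 pg. Scn8a, a sodium channel of the axon initial segment, read 5.09, 5.65 and 3.87 at 10 pg and -0.09, -0.08 and 0.43 at 0.1 pg and fell by 4.78 ± 0.659 (SE, adjusted p = 0.000449). Cacna2d1, a calcium channel subunit, fell by 4.12, from 3.34, 3.88 and 2.10 to -1.58, -1.16 and -0.30. In the opposite direction Scn3b, an auxiliary sodium channel subunit, read 1.19, 1.11 and 1.72 at 10 pg and 4.44, 4.53 and 4.06 at 0.1 pg. It stood at 1.85 in bulk and rose by 3.0 ± 0.635 (SE, adjusted p = 0.00832), away from bulk. The other probe set for Scn3b read 4.06 in bulk and on average 3.73 at 10 pg and 1.77 at 0.1 pg. Its difference of -1.96, in the opposite direction, did not pass. Kcnj3, a G protein-gated potassium channel, rose by 3.20, and 2 of its 4 probe sets passed. The median of the probe sets did not pass for Scn8a, Cacna2d1, Scn3b or Kcnj3. Kcnn2 and Cacna1d, a potassium and a calcium channel, were kept, though each array of 0.1 pg lay below those of 10 pg, with differences of -0.57 (95% interval -1.32 to 0.18) and -0.53 (95% interval -1.32 to 0.25).

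Calcium signalling had 9 of 27 measured genes lower (33.3%) and 1 higher (3.7%), where 4.99% of all genes moved each way. In the bulk top 25% 6 of 19 were kept at both inputs, where 46.8% of all such genes were. The 9 became 5, 5 and 7 without replicates 1, 2 and 3 of 10 pg and 6, 5 and 5 without those of 0.1 pg. Pcp4, a regulator of calmodulin with 1 probe set, read 5.32, 4.94 and 3.29 at 10 pg and -0.26, 0.31 and -0.20 at 0.1 pg, and fell by 4.57 ± 0.639 (SE, adjusted p = 0.000518). Hpca, the calcium sensor hippocalcin, fell by 3.54, with 4.22, 3.37 and 3.70 against 0.18, 0.27 and 0.21, while its other probe set differed by 0.63. All 3 probe sets for Atp2b1, a calcium pump of the plasma membrane, fell, the one used here by 3.34. Nrgn, the postsynaptic calmodulin-binding protein neurogranin, is small and abundant, and read 7.0, 6.66 and 6.62 against 6.56, 6.64 and 6.85. Its difference of -0.08 had a 95% interval from -0.90 to 0.74. Ncald, a sensor related to hippocalcin, read 4.36, 5.14 and 5.41 against 5.25, 4.98 and 5.39.

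Of the markers of neuron classes, 22.7% of the excitatory and 9.52% of the inhibitory ones fell, where 4.99% of all genes did. Among 22 excitatory markers 5 fell (Neurod1, Neurod6, Bcl11b, Cux2, Lamp5) and 1 rose. The 5 became 2, 2 and 4 without replicates 1, 2 and 3 of 10 pg and 2, 1 and 4 without those of 0.1 pg. Lamp5, a membrane protein of some cortical neurons, read 5.19, 2.77 and 5.11 against -1.48, -1.49 and -2.23, with 1.27 in bulk. Neurod6, a transcription factor of pyramidal neurons, fell by 4.42 ± 0.949 (SE, adjusted p = 0.00896), and its adjusted p was 0.0545 without replicate 2 of 0.1 pg. The related factor Neurod2 was kept with 7.10, 6.81 and 7.0 against 6.73, 6.75 and 7.20. Of 21 inhibitory markers 2 fell and none rose, and the count was 1 without replicate 1 or 2 of 10 pg and without replicate 1 or 2 of 0.1 pg. One of the 2, Dlx2, a homeobox factor of interneurons, read 3.95, 1.73 and 4.00 against 0.12, -0.80 and -0.87, and 0.53 in bulk. Calb2 (calretinin) read 7.54, 7.31 and 7.63 against 6.95, 6.86 and 7.42, and the peptide precursor Tac1 read 5.30, 5.40 and 5.58 against 5.10, 5.16 and 5.74. Gad2, an enzyme of GABA synthesis, was kept at 10 pg and lost at 0.1 pg, whereas Gad1 was kept at both.

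Of the neuropeptide, adhesion and immediate early lists 13.0, 6.9 and 15.0% fell, where 4.99% of all genes did. Of 23 neuropeptide genes and their processing enzymes 3 fell (Bdnf, Chgb, Cpe), and the count was 1, 2 and 3 without replicates 1, 2 and 3 of 10 pg and 2, 1 and 2 without those of 0.1 pg. Cpe, a carboxypeptidase of secretory granules, read 7.26, 6.08 and 6.39 at 10 pg and 2.27, -1.27 and -1.95 at 0.1 pg, so that replicate 1 of 0.1 pg kept more of it. Pam, the enzyme that amidates peptides, read 5.15, 5.51 and 5.24 against 5.35, 5.10 and 4.94. Of 29 adhesion genes 2 fell and 1 rose, and without replicate 1 of either input 1 fell. Cadm1, a synaptic adhesion protein, read 5.71, 5.92 and 6.07 against 2.55, 1.38 and 4.59, and fell by 3.06. Ncam1 and Ncam2, neural cell adhesion molecules, were kept, the former lower and the latter higher on every array of 0.1 pg, with differences of -0.63 (95% interval -1.42 to 0.16) and 0.35 (95% interval -0.45 to 1.15). Each had another probe set called in the opposite direction. For Ncam1 it rose by 3.03 and for Ncam2 it fell by 3.13 (adjusted p = 0.0133 and 0.0468 in limma). Of 20 immediate early genes 3 fell and 1 rose, with 1, 2 and 3 fallen without replicates 1, 2 and 3 of 10 pg and 2 without each array of 0.1 pg. Egr1, a transcription factor induced by activity, read 5.17, 4.84 and 2.66 against 1.11, 0.58 and 0.33. Of 17 mRNAs known from dendrites 5 fell (29.4%) and none rose, Actb among them at 7.45, 7.08 and 7.05 against 4.75, 3.16 and 4.99.

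The 14-3-3 proteins, which bind phosphorylated partners and are abundant in brain, had the highest share of fallen genes of any list. All 6 members in the bulk top 25% fell, and Sfn, the epithelial form, read 1.19, 1.59 and 1.48 against 0.75, 1.04 and 0.96. Ywhae read 6.90, 6.84 and 6.24 at 10 pg, 0.84, 0.29 and 2.88 at 0.1 pg and 5.99 in bulk, and fell by 5.32 ± 0.626 (SE, adjusted p = 0.000155), and 3 of its 4 probe sets fell. Ywhag read 5.90, 5.83 and 5.47 against 1.16, 0.38 and 1.44, and Ywhaq read 5.19, 3.58 and 4.44 against -0.94, 0.64 and 1.88. The other probe sets for Ywhag differed by -0.65, -1.65 and -1.45 and did not pass, nor did the median over all of its probe sets. The 6 became 4, 5 and 6 without replicates 1, 2 and 3 of 10 pg and 4, 5 and 5 without those of 0.1 pg. All 6 were kept at 10 pg, and 2 of them (Ywhab and Ywhaz) at 0.1 pg.

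Among the other lists of general cell function 4.11% (mitochondrial ribosomal proteins) to 23.1% (glycolysis) fell, where 4.99% of all genes did. Of 43 ubiquitin conjugation genes 6 fell and 2 rose, and 3, 4 and 5 fell and 0, 1 and 1 rose without replicates 1, 2 and 3 of 10 pg, and 5, 3 and 4 fell and 0, 0 and 1 rose without those of 0.1 pg. One that fell was Skp1, an adaptor of ubiquitin ligases, which read 4.85, 4.71 and 4.19 against -0.11, -1.25 and -0.36. Of 76 genes of the respiratory chain and ATP synthase 8 fell and 6 rose. Ndufs1, a complex I subunit with 1 probe set, read 0.14, -0.20 and 0.80 at 10 pg and 3.39, 3.59 and 3.58 at 0.1 pg, and rose by 3.27 ± 0.661 (SE, adjusted p = 0.00622), past its 2.34 in bulk. Of 73 mitochondrial ribosomal proteins 3 fell (4.11%) and 7 rose (9.59%), and of 41 cytosolic ones 3 fell (7.32%) and none rose. The fallen shares of both lists were thus near the 4.99% of all genes. Without replicates 1, 2 and 3 of 10 pg the respiratory chain had 2, 4 and 9 fallen and 2, 2 and 4 risen genes, and without those of 0.1 pg 5, 7 and 4 fallen and 2, 3 and 3 risen genes. The risen mitochondrial ribosomal proteins then numbered 2, 3 and 7, and 3, 2 and 4, and the fallen cytosolic ones 0, 1 and 5, and 1, 0 and 1. Of 13 glycolysis genes, whose median change was -1.22, 3 fell, with Eno2 among them, and 1 without replicate 1 of 10 pg. Glial and vascular lists had at most 2 genes in either direction. Of the astrocyte markers 11.8% fell and 5.88% rose, and of the oligodendrocyte markers 6.25% each. Of the microglial markers none fell and 6.67% rose, and of the endothelial and pericyte markers 5.88% moved each way. The 2 astrocyte markers that fell became at most 1 when any 1 array was left out. In the bulk top 25% both inputs kept 3 of 9 astrocyte, 3 of 5 oligodendrocyte and 3 of 3 microglial markers. They also kept 2 of 5 endothelial and pericyte markers, and 46.8% of all genes of the bulk top 25%.

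A kept rank was not particular to genes that cortex is known to express. Of 33 Hox genes, patterning factors of the hindbrain, cord and limbs, 7 were in the bulk top 25% and 6 were kept at both inputs, while 2 of 4 such olfactory receptors and 1 of 5 such vomeronasal and taste receptors were. Of all genes of the bulk top 25%, 46.8% were. Hoxc6 read 5.73, 5.51 and 5.49 at 10 pg, 4.97, 5.45 and 5.39 at 0.1 pg and 5.75 in bulk. The olfactory receptor Olfr15 read 5.74, 5.79 and 5.76 against 5.63, 5.71 and 6.04, and 5.82 in bulk. What part of a kept level is background was not tested. Of the 37 vomeronasal and taste receptors 4 rose (10.8%) and none fell, and of the Hox genes 5 rose (15.2%) and 1 fell (3.03%). Of 38 olfactory receptors 1 rose (2.63%) and none fell, where 4.99% of all genes moved each way. Of the vomeronasal and taste receptors none rose without replicate 1 or 2 of 10 pg or replicate 2 of 0.1 pg, and 1 rose without replicate 1 or 3 of 0.1 pg. Of the Hox genes 1 rose without replicate 1 of either input and 2 without replicate 2 of either. Of 22 testis-restricted genes and 22 genes of liver, muscle and pancreas, none passed in limma.

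Beyond the 5 largest falls, the next 10 were Rhob, Pkp4, Ppp1r12a, Qrich1, Limd2, Pbx2, Lamp5, Cpsf6, Nipsnap2 and Uri1. Rhob, a small GTPase of endosomes and actin, read 5.89, 5.85 and 4.72 against -1.26, -0.17 and -1.56, and fell by 6.48 ± 0.794 (SE, adjusted p = 0.000199). Ppp1r12a, a myosin phosphatase subunit, fell by 6.38, and its arrays of 0.1 pg spread from -2.04 to 3.88. Limd2, Pbx2 and Uri1 stood at 5.47, 4.83 and 6.12 on average at 10 pg but at 1.74, 0.90 and 1.40 in bulk, so their levels at 10 pg were above bulk. The most abundant genes of bulk lost at 0.1 pg included Gsk3b, a kinase of many neuronal pathways, Cltc, the clathrin heavy chain of vesicle recycling, and Tardbp, the RNA-binding protein TDP-43. Gsk3b read 6.61, 6.77 and 6.16 against 1.91, -0.12 and 0.26, with 5.97 in bulk. Cltc read 5.39, 5.81 and 5.06 against 0.03, 0.19 and -0.30, with 5.57 in bulk and 5.13 ± 0.129 (SD, n = 3) at 1 pg after 4 rounds. Tardbp read 5.09, 4.55 and 4.46 against -0.44, -0.23 and 0.07, with 5.64 in bulk and 1.23 ± 0.395 (SD, n = 3) at 1 pg.

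The rises ranked 6 to 15 were Snhg16, Phospho2, Mycs, Atp13a2, Prl8a1, Gm36243, Serpina11, Lrig1, 4933408J17Rik and Plekhg4. Phospho2, a phosphatase, read 1.86, 2.28 and 3.57 at 10 pg and 7.04, 7.04 and 6.79 at 0.1 pg, with 1.66 in bulk, and rose by 4.38 ± 0.623 (SE, adjusted p = 0.000566). Mycs, a Myc family gene, read 0.99, 1.02 and 1.41 against 7.23, 5.63 and 3.68, and 0.36 in bulk. Serpina11, a serpin, read 0.55, 0.29 and 1.10 against 5.09, 5.22 and 4.19, and 0.70 in bulk. Each of the 10 had a higher level on every array of 0.1 pg than in bulk. For Lrig1, Prl8a1 and Gm36243 replicate 3 of 10 pg was the highest of its group, and their adjusted p was 0.197, 0.108 and 0.0713 without replicate 1 and 0.109, 0.0607 and 0.0647 without replicate 2 of 10 pg. Without replicates 1 and 2 of 0.1 pg it was 0.115 and 0.108 for Lrig1, 0.0617 and 0.0744 for Prl8a1, and 0.0520 and 0.0548 for Gm36243, and for Lrig1 it was 0.0831 without replicate 3.

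Some genes had probe sets that were called in opposite directions. Of 1129 called genes with several probe sets, 69 had another one called in the opposite direction and 160 one called in the same direction. Of all probe sets 8.86% were called, but this share is per probe set. A gene can have several others, so the share is no background for these counts per gene. By the median over a gene's probe sets 23 of the 63 called genes named here kept their direction but no longer passed. Among them were Klc1, Hpca, Gria2, Ywhag, Limd2, Cpsf6, Uri1, Gsk3b, Tardbp, Snhg16 and Phospho2. The following genes were picked to show the disagreement. Of the 6 probe sets for Syn2, 3 passed, with differences of -3.39 and -2.32 on the one side and 3.96 on the other. For Kif2a, a kinesin that depolymerizes microtubules, 1 probe set fell by 6.62 and 2 rose by 2.30 and 1.90, and the median of the 5 changed by 0.38. Homer1, a postsynaptic scaffold with short and long forms, had a difference of 3.76 in the probe set used (adjusted p = 0.0770 in limma), while 2 others fell by 5.34 and 1.55. Ppp3ca, the catalytic subunit of calcineurin, had a difference of 1.19 in the probe set used (adjusted p = 0.204 in limma), whereas the other 2 fell by 5.39 and 3.15. For Mbp, the myelin basic protein, the probe set used rose by 2.99 and another of the 8 fell by 4.85. The rise of Mbp had an adjusted p of 0.114, 0.0830 and 0.0297 without replicates 1, 2 and 3 of 10 pg, and of 0.0703, 0.0839 and 0.0702 without those of 0.1 pg.

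**Figure D5:**
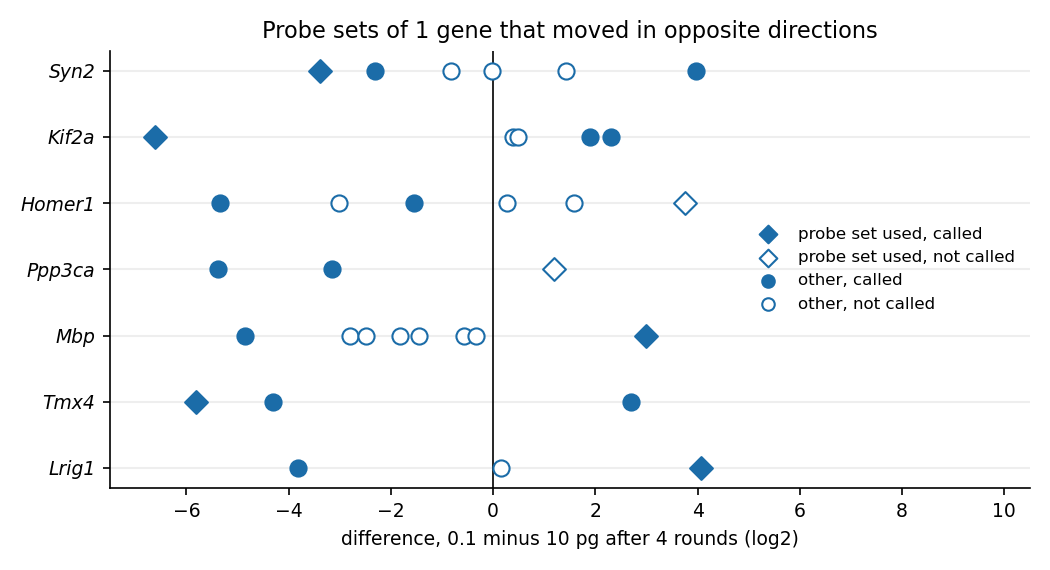
Difference in log2 between 0.1 and 10 pg after 4 rounds for every probe set of 7 genes, 1 symbol each. Diamonds are the probe set used for the gene, filled symbols passed limma, and each gene has probe sets on both sides of 0, such as Tmx4 with -5.81, -4.31 and 2.69.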

How the data were processed

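The authors deposited log2 probe set values of the 17 arrays, made with RMA (version 2.0 in the submitters' processing notes). The centring and range scaling that the study's methods describe were not in the deposited log2 values and were applied here: each array was centred on its median and scaled to the mean range between its 10th and 90th percentiles, 4.643. Of 45101 probe sets 64 controls were left out, and of the 45037 analysed 34945 carried 1 gene symbol, 932 several and 9160 none, which gave 18193 genes. limma 3.58.1 in R 4.3.3 was fitted with 7 group means on all 17 arrays, with Benjamini-Hochberg adjustment over all probe sets and a threshold of 0.05, and was tested on simulated data. The single bulk array was assumed to vary like the other groups. All adjusted p-values and SE of genes are from this limma fit, and intervals are at 95%. Shares and correlations were computed in Python 3.11.15 (scipy 1.17.1, pandas 2.3.3, numpy 2.4.6) and plotted with matplotlib 3.10.9. The number of arrays limits the precision.

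Genes were named by rule: the 15 largest falls and rises without overlap of the arrays, up to 3 falls, rises and uncalled members of highest bulk level per list, and the 10 genes of highest bulk level kept at both inputs or lost at 0.1 pg and kept at 10 pg. Members named in the text for a list's count alone were chosen after their values were seen. The arrays and gene lists were chosen with earlier results of these data known. Alternatives were the scaling, a filter on dim probe sets, the arrays fitted, the test, the threshold, a replicate block, each array left out and the median over a gene's probe sets. List counts and neuronal shares by this median were added after seeing the data.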

Additional observations from a re-analysis of the deposited data

How the results depend on the processing

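The 3991 changed probe sets became 5042 with the deposited values, 4716 with centring alone, 4193 with quantile normalization and 3744 without dim probe sets. They were 8102 when only the 6 compared arrays were fitted, 1598 with the methods' t-test after adjustment, 296 at a false discovery rate of 0.1%, and between 1501 (without replicate 1 of 10 pg) and 3814 (without replicate 3 of 10 pg) when 1 array was left out. With the other arrays left out they were 1896 without replicate 2 of 10 pg and 1800, 1628 and 2913 without replicates 1, 2 and 3 of 0.1 pg. The share of higher calls was 45.6%, and 55.3% with the deposited values, whose median change was 0.20 in place of 0.10. It was 7.77% at a false discovery rate of 0.1%, and 27.8%, 30.7% and 46.2% without replicates 1, 2 and 3 of 10 pg and 31.7%, 30.8% and 43.9% without those of 0.1 pg. With a replicate block in a fit of the compared groups 5378 probe sets changed. Deviations of arrays with the same number correlated at -0.0179, -0.019 and -0.077, so the numbers do not pair the arrays.

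The difference in correlation with bulk stayed negative, from -0.125 to -0.201 over all alternatives, and that in the share of the bulk top 25% kept from -4.66 (top 5%) to -13.1 percentage points (median over the probe sets). Of 63 called genes named in the text, all 63 kept their call with the deposited values, centring alone, quantile normalization, the compared groups alone and the block, 29 with the t-test, 29 at 0.1%, between 51 and 62 without 1 array, and 36 by the median over the probe sets. Among the called genes that median turned the direction of Cacng2 (to 1.14), Atp13a2 (to -0.15), Kif2a (to 0.38) and Mbp (to -2.04). Among genes not called it turned Homer1 to -1.40 and Ppp3ca to -2.56. Other uncalled genes changed sign as well, such as Map4 from -0.09 to 1.36 and Grin2d from 0.16 to -0.24. The cause was not tested.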
